A study of Mus musculus with 6 samples.

Results

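The genes described here are 10 transcription factors linked to the first steps of lymphoid development: Ikzf1, Ikzf3, Satb1, Mef2c, Bcl11a, Foxo1, Ets1, Runx2, Sox4 and Myb. They were listed by name, by a rule that uses no measured value, though earlier results of these data were known when the list was made. A gene was measured through the probe sets annotated to its symbol alone, and was represented by the one with the highest mean over the 6 arrays. By this rule 9 of the 10 were measured, among 18194 genes in all, through 41 of 45101 probe sets. Runx2 had no such probe set and was not analysed here.

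RNA came from bone marrow of adult mice, in 3 groups of 2 Affymetrix arrays. E2A-KO LMPP were lymphoid-primed multipotent progenitors from mice without E2A on a C57bl/6 background, sorted as lineage-negative cells with SCA1, KIT and high FLT3 on the surface. WT LMPP were sorted through the same gate from wild-type C57bl/6 mice. WT LSK FLT3- were wild-type lineage-negative cells with SCA1 and KIT but without FLT3, the fraction that holds stem cells. The sources used here do not give the E2A allele, the age in weeks, or whether a group's arrays came from separate mice or sorts. The p-values therefore cover the spread between these arrays alone, and that spread may be technical. No E2A-KO sample of the FLT3-negative fraction was analysed here. The stated purpose of the study was to compare the LMPP of the genotypes.

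E2A is the name of the basic helix-loop-helix proteins encoded by Tcf3, which bind E-box sequences in DNA and are needed to start B cell development. Lymphoid priming is the state in which progenitors that can still make myeloid cells begin to transcribe lymphoid genes such as those of the interleukin-7 receptor and the recombinase. Ikaros, encoded by Ikzf1, is required for that state, and the factors encoded by Mef2c, Bcl11a, Foxo1, Sox4 and Myb are each needed for early B or common lymphoid progenitors in mice.

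Levels are log2 of the deposited intensity, and a change is a difference of group means on that scale. Tcf3, the targeted gene, was at 6.80 and 6.53 in E2A-KO LMPP, 6.93 and 6.86 in WT LMPP and 7.27 and 7.41 in WT LSK FLT3- on its brightest probe set, and none of its 3 probe sets passed between the LMPP genotypes (-0.23, -0.09 and -0.33, adjusted p 0.425 to 0.869). Since the deleted part of the gene is unknown, these probe sets do not check the genotype labels. The array medians lay at 4.04 and 4.04 in E2A-KO LMPP, 4.01 and 4.01 in WT LMPP and 3.91 and 3.90 in WT LSK FLT3-, and fold changes are compressed near and below that level. The upper quartile was 5.78 and 5.79 in E2A-KO LMPP, 5.80 and 5.82 in WT LMPP and 6.13 and 6.15 in WT LSK FLT3-. The array's Actb controls give a measure of how far the labelled RNA reached, as the level near the 3' end minus that near the 5' end, and it was 3.86 and 3.77 in E2A-KO LMPP, 3.89 and 3.95 in WT LMPP and 3.55 and 3.45 in WT LSK FLT3-. The same measure for Gapdh was 3.09 and 3.35 in E2A-KO LMPP, 3.19 and 3.30 in WT LMPP and 3.44 and 3.25 in WT LSK FLT3-, where the fractions overlapped. The upper quartile and the Actb measure moved with the cell fraction, and their part in the results against WT LSK FLT3- was not tested. Of the gate's genes, Flt3 averaged 10.73 in E2A-KO LMPP, 10.80 in WT LMPP and 8.81 in WT LSK FLT3-. Kit, for which all 3 groups were sorted, averaged 8.66 in E2A-KO LMPP, 8.98 in WT LMPP and 10.22 in WT LSK FLT3-, and was lower in E2A-KO LMPP (-1.56) and in WT LMPP (-1.24) than in WT LSK FLT3-. None of the 9 measured stem cell genes passed between the LMPP genotypes, where 1 change lay below 0 and the median change was 0.14. All 9 were lower in WT LMPP than in WT LSK FLT3-, with a median change of -2.35. In bulk RNA, fewer cells of a type and less RNA per cell cannot be told apart.

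Promoter sequences were matched for 8 of the 10 members in RefSeq (GRCm38.p6), with 15 annotated start sites, each given as 250 bases before and 50 after the start. Ets1 and Ikzf3 were not matched, so their promoters were not searched, while Runx2, not measured on the arrays, is among the 8. The sequences are shown because E2A acts through E-boxes. On either strand, CAGCTG was found in 2 of the 15 windows, CAGGTG or its complement CACCTG in 2, both of Satb1, and any E-box, CANNTG, which includes these, in 11. Of 32851 mouse promoters of this length, 16.3% held CAGCTG, 20.2% held CAGGTG or CACCTG and 72.3% held any E-box. The upstream parts of 3 windows follow, 5' to 3', with these 3 hexamers in capitals. The first is a Satb1 start (chr17:51826589-51826838, minus strand), whose marked sites begin 172 and 64 bases before the start, and Satb1 had the largest rise of the members at the LMPP stage. Satb1 has 5 of the 15 starts, and the upstream parts of its other windows hold none of these 3 hexamers. The second is Sox4 (chr13:28953700-28953949, minus strand), with a site 211 bases before the start, and the third is Bcl11a (chr11:24080445-24080694, plus strand), with none, the member with the largest change below 0 in E2A-KO LMPP after Ets1. A match describes these letters only, and the arrays do not show which start is used.
Satb1: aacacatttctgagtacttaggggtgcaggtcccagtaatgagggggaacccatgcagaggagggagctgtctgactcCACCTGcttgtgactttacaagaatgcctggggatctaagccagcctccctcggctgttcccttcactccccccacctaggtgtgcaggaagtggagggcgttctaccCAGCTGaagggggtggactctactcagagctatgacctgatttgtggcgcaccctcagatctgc
Sox4: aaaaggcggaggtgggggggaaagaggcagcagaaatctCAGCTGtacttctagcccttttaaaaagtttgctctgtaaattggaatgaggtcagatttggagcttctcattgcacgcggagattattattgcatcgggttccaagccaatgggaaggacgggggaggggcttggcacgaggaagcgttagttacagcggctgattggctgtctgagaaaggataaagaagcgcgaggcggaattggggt
Bcl11a: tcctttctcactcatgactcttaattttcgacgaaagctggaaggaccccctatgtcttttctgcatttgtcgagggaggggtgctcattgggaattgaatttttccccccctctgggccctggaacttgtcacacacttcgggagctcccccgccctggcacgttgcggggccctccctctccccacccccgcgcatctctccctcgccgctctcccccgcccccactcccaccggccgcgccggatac

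In E2A-KO LMPP, Ets1 was the member that passed an adjusted p of 0.05 in limma's moderated test, at 3.09-fold below WT LMPP. The other 8 did not pass, with changes between -0.64 (Bcl11a) and 0.08 (Myb). In simulated data for this comparison the fit recovered 1.04% of log2 changes of 0.5 and 56.3% of changes of 1. True changes of the size seen in the other 8 can therefore be missed. Of 9 measured members 1 fell and 0 rose, while over all 18194 genes 0.995% fell, 0.379% rose and 1.37% passed in either direction. Unadjusted p-values under 0.05 were reached by 4 members, all lower, and by 3 with quantile normalization, while over all genes 2665 reached them, 1593 of these lower. Both E2A-KO LMPP arrays lay below both WT LMPP arrays for 8 of the 9, as they did for 22.8% of all genes. The members' median change was -0.39, against -0.02 over all genes. By mean level the members ranked between the 76th (Ets1) and the 99th (Myb) percentile of all genes, except Ikzf3 at the 46th. The all-gene values include dim genes, whose changes are compressed. Among the 10916 genes outside the dimmest 40%, 248 fell and 87 rose. With the dimmest 40% of genes left out, or with a trend in the variance, Satb1 and Bcl11a also fell, so that 3 members passed. Without E2A-KO LMPP replicate 1 or without WT LMPP replicate 2, 0 members passed.

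**Figure D1:**
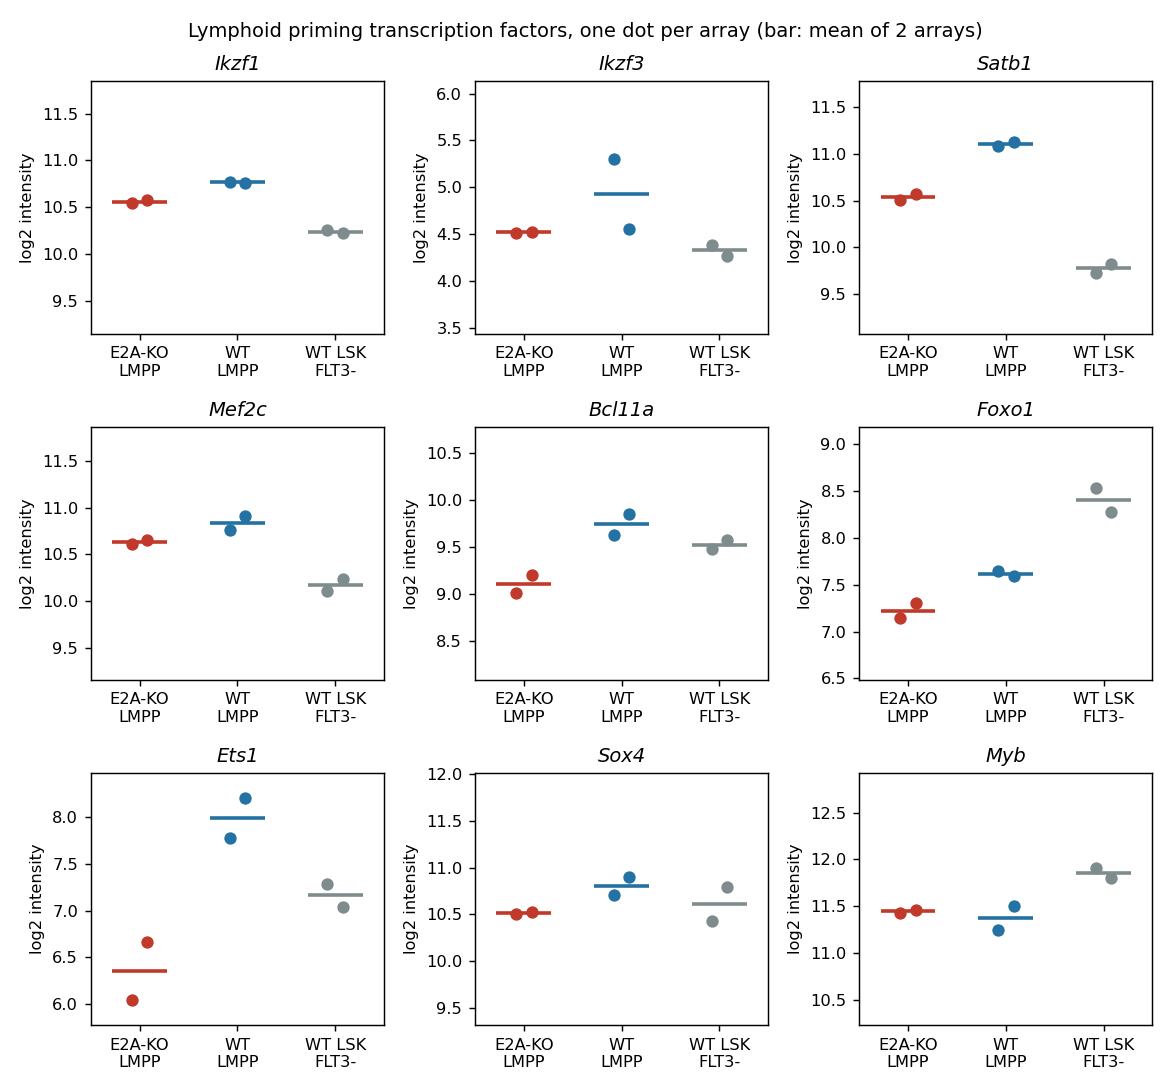
Level of each measured member on each array (y axis, log2 intensity, 2.7 log2 units high in every panel) in E2A-KO LMPP, WT LMPP and WT LSK FLT3- (x axis), with a bar at the mean of 2 arrays. Both E2A-KO LMPP arrays lie below both WT LMPP arrays for every member but Myb, and the gap is widest for Ets1.

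Markers of another cell type moved with the genotype. Of 9 measured genes of maturing neutrophils, 7 were lower in E2A-KO LMPP than in WT LMPP, and the list's summed linear intensity was 664 and 583 in E2A-KO LMPP, 2976 and 2979 in WT LMPP and 1750 and 1634 in WT LSK FLT3-. None of the 9 lay below the array median on all arrays. Their part in the members' changes was not tested. Of 11 genes of T, NK and innate lymphoid cells, which also use Ets1, Satb1 and Ikzf3, 0 passed between the genotypes in limma and 1 was lower at an unadjusted p under 0.05, and the list summed to 227 and 233 in E2A-KO LMPP, 226 and 229 in WT LMPP and 219 and 206 in WT LSK FLT3-. Of 9 dendritic cell genes 0 passed between the genotypes in limma, but all 9 changes lay below 0, with a median of -0.29. At an unadjusted p under 0.05, 4 of these dendritic cell genes were lower and 0 higher. Their part in the members' changes was likewise not tested.

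Ets1 encodes the founding member of the ETS family, used in B, T and NK cells. Its level was 6.05 and 6.67 on the E2A-KO LMPP arrays, 7.77 and 8.20 on the WT LMPP arrays and 7.29 and 7.04 on the WT LSK FLT3- arrays. No groups overlapped: E2A-KO LMPP was lowest at 6.36 ± 0.44, WT LMPP highest at 7.99 ± 0.30, and WT LSK FLT3- lay between at 7.16 ± 0.18 (SD, n = 2 each). The change in E2A-KO LMPP was -1.63 (SE 0.22, adjusted p = 0.0109), the difference of E2A-KO LMPP from WT LSK FLT3- was -0.81 (SE 0.22, adjusted p = 0.022), and WT LMPP stood 0.82 above WT LSK FLT3- (SE 0.22, adjusted p = 0.0225). Neighbours in the order therefore differed beyond the spread of the arrays. The fall in E2A-KO LMPP did not pass when E2A-KO LMPP replicate 1 (-1.32, adjusted p = 0.0616) or WT LMPP replicate 2 was left out (-1.42, adjusted p = 0.0553). The rise at the LMPP stage lost its call without WT LMPP replicate 2 (0.61, adjusted p = 0.105) or without either WT LSK FLT3- array (adjusted p = 0.075 and 0.155). The difference between E2A-KO LMPP and WT LSK FLT3- was lost without E2A-KO LMPP replicate 1 (-0.50, adjusted p = 0.127), without either WT LSK FLT3- array (adjusted p = 0.151 and 0.0697), with quantile normalization (-0.36, adjusted p = 0.307) and when all its probe sets were averaged (-0.44, adjusted p = 0.0611).

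A further Ets1 probe set showed the same order with wider gaps. Probe set 1452163_at of Ets1 read 4.25 and 4.73 in E2A-KO LMPP, 6.89 and 7.41 in WT LMPP and 6.12 and 5.73 in WT LSK FLT3-. The E2A-KO level was near the array median on this probe set. Its change in E2A-KO LMPP was -2.66 (adjusted p = 0.00115 over all probe sets), and the call held under 12 of 12 alternatives added after the data were seen, with changes from -2.92 to -2.40 and adjusted p up to 0.0179. The remaining probe sets, 1422027_a_at and 1422028_a_at of Ets1, averaged 3.86 and 3.64 in E2A-KO LMPP, 3.98 and 3.45 in WT LMPP and 3.71 and 3.29 in WT LSK FLT3-, at or below the array medians, and neither passed in any comparison. The brighter probe set carries the suffix _s_at, which marks probes that can match more than 1 transcript, so part of its signal may not be Ets1. Probe sets of a gene read the same RNA and are not replicates.

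**Figure D2:**
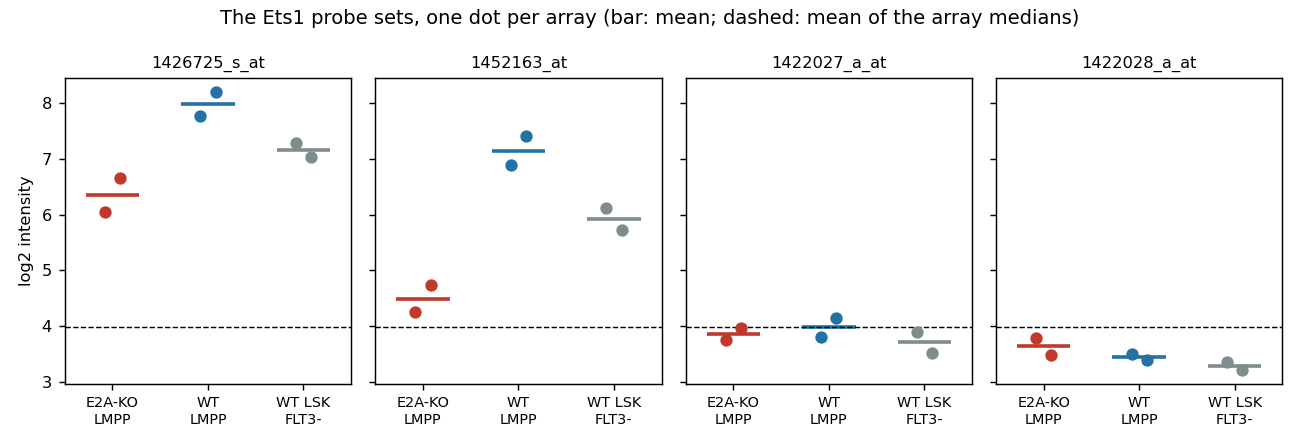
The 4 probe sets of Ets1, brightest at the left, with the log2 intensity (y axis) of each array in E2A-KO LMPP, WT LMPP and WT LSK FLT3- (x axis), a bar at the mean and a dashed line at the mean of the array medians. The first 2 probe sets are lowest in E2A-KO LMPP and highest in WT LMPP, and the other 2 lie near or under the dashed line in all groups.

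Ikzf1 and Ikzf3 encode the zinc finger proteins Ikaros and Aiolos, and Bcl11a encodes a zinc finger repressor needed for B cell development. Ikzf1 was at 10.54 and 10.58 in E2A-KO LMPP, 10.77 and 10.76 in WT LMPP and 10.26 and 10.22 in WT LSK FLT3-. The 3 groups did not overlap. Ikzf1 rose by 0.53 (SE 0.12, adjusted p = 0.0118) at the LMPP stage, while E2A-KO LMPP did not pass against WT LMPP (-0.21, 95% interval -0.49 to 0.07, adjusted p = 0.48) or against WT LSK FLT3- (0.32, 95% interval 0.04 to 0.60, adjusted p = 0.0706). The stage rise of Ikzf1 lost its call without either WT LSK FLT3- array (adjusted p = 0.0809 and 0.0966) and when its probe sets were averaged (0.30, adjusted p = 0.0726). With quantile normalization, a variance trend or the dimmest 40% of genes left out, Ikzf1 passed as higher in E2A-KO LMPP than in WT LSK FLT3- (0.55, 0.32 and 0.32).

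Ikzf3 read 4.51 and 4.53 in E2A-KO LMPP, 5.30 and 4.55 in WT LMPP and 4.38 and 4.27 in WT LSK FLT3-. These values lie just above the array medians, and the first WT LMPP array stood above the other 5. Ikzf3 passed in no comparison: -0.41 between the LMPP genotypes (95% interval -0.91 to 0.09, adjusted p = 0.438) and 0.60 between the wild-type fractions (adjusted p = 0.0623). Without WT LMPP replicate 2 the wild-type fractions differed by 0.98 (adjusted p = 0.0038), and their difference passed in 4 of 14 alternatives in all, among them a variance trend (adjusted p = 0.0472) and averaged probe sets (adjusted p = 0.0265).

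Bcl11a was at 9.01 and 9.20 in E2A-KO LMPP, 9.63 and 9.86 in WT LMPP and 9.48 and 9.57 in WT LSK FLT3-. E2A-KO LMPP was the lowest group without overlap, and the wild-type fractions lay close together. The change in E2A-KO LMPP was -0.64 (SE 0.14, 95% interval -0.96 to -0.31), which did not pass over all genes (adjusted p = 0.0766). Against WT LSK FLT3-, Bcl11a was lower in E2A-KO LMPP at the edge of the threshold (-0.42, adjusted p = 0.0458), and the call was lost in 7 of 14 alternatives, among them each fit without an array of either group (adjusted p 0.0553 to 0.23) and quantile normalization (-0.10, adjusted p = 0.645). Between the wild-type fractions the change was 0.22 (95% interval -0.11 to 0.54, adjusted p = 0.262), and it passed with quantile normalization (0.49, adjusted p = 0.0384).

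The 4 brightest probe sets of Bcl11a had changes of -0.64, -0.55, -0.76 and -0.77 in E2A-KO LMPP. Of these, 1426552_a_at of Bcl11a passed over all probe sets (-0.77, adjusted p = 0.0402), with 5.33 and 5.42 in E2A-KO LMPP against 6.06 and 6.23 in WT LMPP. That call was lost in each fit on 5 arrays (adjusted p 0.0669 to 0.146) and on the 4 LMPP arrays alone (adjusted p = 0.136). The other 3 Bcl11a probe sets had changes of -0.07, -0.19 and 0.27, and 2 of these lay below the array medians.

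Satb1 encodes a chromatin organiser of lymphoid cells, and Mef2c a MADS-box factor that favours lymphoid over myeloid genes. Satb1 was at 10.50 and 10.57 in E2A-KO LMPP, 11.09 and 11.12 in WT LMPP and 9.73 and 9.82 in WT LSK FLT3-. No groups overlapped, with E2A-KO LMPP between the wild-type fractions. Satb1 rose by 1.33 at the LMPP stage (SE 0.13, adjusted p = 0.0002), or 2.51-fold, ranking as number 96 among the rises of all genes. E2A-KO LMPP was still 0.76 above WT LSK FLT3- (SE 0.13, adjusted p = 0.00228). Both of these calls held under all 14 alternatives run on single members. The difference between the LMPP genotypes was -0.57 (SE 0.13, 95% interval -0.85 to -0.28, adjusted p = 0.0762).

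All 5 probe sets of Satb1 rose at the LMPP stage, by 1.31 to 2.16, and all 5 were higher in E2A-KO LMPP than in WT LSK FLT3-. The 3 brightest differed between the LMPP genotypes by -0.57 to -0.62. Probe set 1439449_at of Satb1 differed by 0.17, with 6.82 and 6.28 in E2A-KO LMPP against 6.43 and 6.33 in WT LMPP, and had the largest stage rise of the 5. The sources used here do not say where on the transcript these probe sets lie.

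Mef2c was at 10.61 and 10.66 in E2A-KO LMPP, 10.76 and 10.91 in WT LMPP and 10.11 and 10.24 in WT LSK FLT3-. WT LMPP was higher than WT LSK FLT3- by 0.66 (SE 0.13, adjusted p = 0.00596), and E2A-KO LMPP by 0.46 (SE 0.13, adjusted p = 0.0253). The LMPP genotypes lay next to each other, at -0.21 (95% interval -0.51 to 0.09, adjusted p = 0.515). Other Mef2c probe sets showed larger stage rises, with 1.51 for 1421027_a_at and 1.33 for 1451506_at, and 4 of 5 passed. Without WT LSK FLT3- replicate 1 the stage rise did not pass (0.60, adjusted p = 0.0706), and the E2A-KO LMPP difference from WT LSK FLT3- was lost in each fit without an array of either group (adjusted p 0.0637 to 0.176) and with array median centring (0.32, adjusted p = 0.0887).

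Foxo1 encodes a forkhead factor that acts on Il7r and the Rag genes in B cell progenitors. Unlike the members above, it was highest in the FLT3-negative fraction, with 7.14 and 7.31 in E2A-KO LMPP, 7.64 and 7.59 in WT LMPP and 8.53 and 8.28 in WT LSK FLT3-. No groups overlapped. Foxo1 fell at the LMPP stage (-0.79, SE 0.14, adjusted p = 0.00391), and it was lower in E2A-KO LMPP than in WT LSK FLT3- (-1.18, SE 0.14, adjusted p = 0.000546), which held under all 14 alternatives. The LMPP genotypes differed by -0.39 (95% interval -0.72 to -0.07, adjusted p = 0.249). The stage fall lost its call without WT LSK FLT3- replicate 1 (-0.66, adjusted p = 0.0553) and with quantile normalization (-0.46, adjusted p = 0.0584). All 4 Foxo1 probe sets were lower in WT LMPP than in WT LSK FLT3-, but beside the brightest, an _s_at probe set, none passed in that comparison, and 1416982_at of Foxo1 passed as lower in E2A-KO LMPP than in WT LSK FLT3- (-0.88, adjusted p = 0.00313).

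Sox4 encodes an HMG-box factor of early B cell progenitors, and Myb a factor of stem cells and of early lymphoid and myeloid progenitors. Sox4 was at 10.51 and 10.53 in E2A-KO LMPP, 10.71 and 10.90 in WT LMPP and 10.43 and 10.80 in WT LSK FLT3-. The WT LSK FLT3- arrays spanned the E2A-KO LMPP arrays and overlapped with WT LMPP. Sox4 passed in no comparison, at -0.29 between the LMPP genotypes (95% interval -0.64 to 0.07, adjusted p = 0.449) and 0.19 between the wild-type fractions (95% interval -0.16 to 0.55, adjusted p = 0.363). Of its 8 probe sets, the dimmer 1449370_at of Sox4 (0.90, adjusted p = 0.00582) and 1455867_at of Sox4 (0.62, adjusted p = 0.0246) rose at the LMPP stage, while the 3 brightest lay between -0.05 and 0.19.

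Myb was at 11.43 and 11.46 in E2A-KO LMPP, 11.24 and 11.50 in WT LMPP and 11.91 and 11.81 in WT LSK FLT3-. The LMPP genotypes overlapped, and WT LSK FLT3- was highest. Myb fell at the LMPP stage (-0.49, SE 0.14, adjusted p = 0.027), and it was lower in E2A-KO LMPP than in WT LSK FLT3- (-0.41, SE 0.14, adjusted p = 0.0457). The stage fall was lost without WT LMPP replicate 1, without either WT LSK FLT3- array (adjusted p 0.106 to 0.173) and with quantile normalization (-0.33, adjusted p = 0.12). The difference of E2A-KO LMPP from WT LSK FLT3- was lost in 7 of 14 alternatives, among them quantile normalization (-0.27, adjusted p = 0.195). The probe set used is an _x_at one, some of whose probes can match other sequences. The second brightest, 1450194_a_at of Myb, did not pass at the stage (-0.31, adjusted p = 0.238), and the wild-type fractions overlapped on it. It was lower in E2A-KO LMPP than in WT LSK FLT3- (-0.54, adjusted p = 0.0467). The dimmer 1422734_a_at of Myb was at 5.41 and 5.35 in E2A-KO LMPP, 5.54 and 5.54 in WT LMPP and 6.54 and 6.75 in WT LSK FLT3-. On that probe set the stage fall was larger (-1.11, adjusted p = 0.00101).

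**Figure D3:**
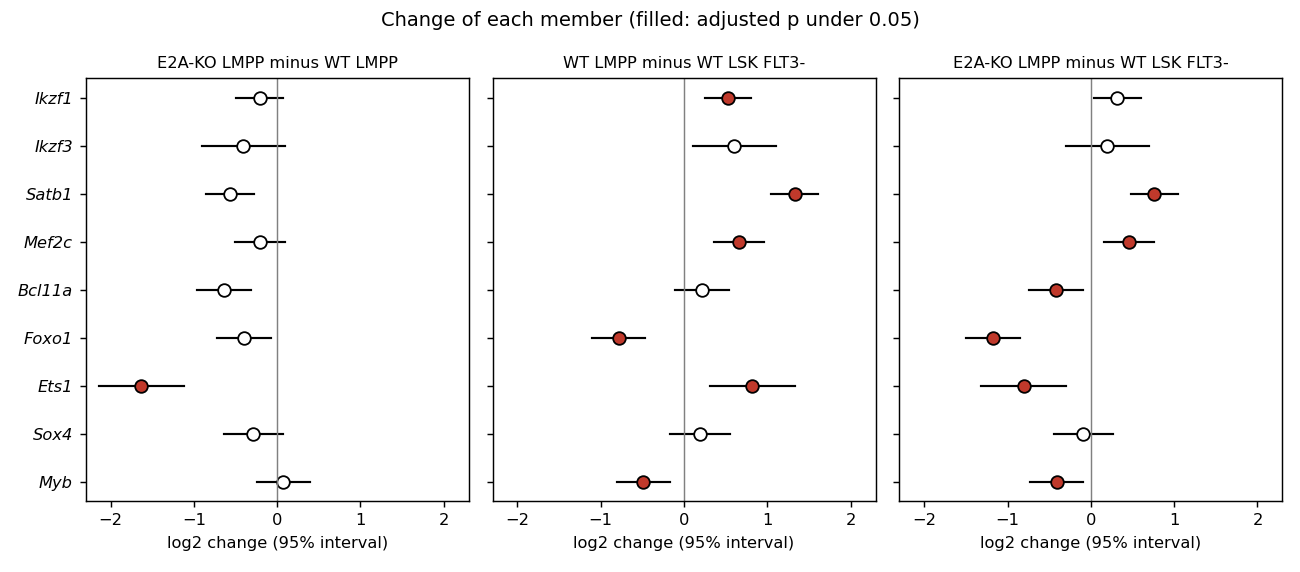
Log2 change of each member (x axis, with its 95% interval) in the 3 comparisons, where filled points passed an adjusted p of 0.05. In E2A-KO LMPP against WT LMPP Ets1 alone is filled, and against WT LSK FLT3- the filled E2A-KO LMPP changes are above 0 for Satb1 and Mef2c and below 0 for Bcl11a, Foxo1, Ets1 and Myb.

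Between the wild-type fractions 4 of the 9 members rose in WT LMPP (Ikzf1, Satb1, Mef2c and Ets1), 2 fell (Foxo1 and Myb) and 3 did not pass. Over all genes 10.4% rose and 23.7% fell. The members' median change was 0.53, against -0.01 for all genes. Most members are brighter than most genes. With the dimmest 40% of genes left out, 1142 of 10916 genes rose and 4453 fell, and 4 members rose and 2 fell. Of the genes that passed, 30.5% were higher in WT LMPP, 47.4% with quantile normalization and 17.8% with array median centring, which moved the median of all genes to -0.12. Under quantile normalization 5 members rose and 0 fell, and under median centring 4 rose and 2 fell. Without WT LSK FLT3- replicate 1 only Satb1 passed, and without replicate 2 of that group 3 members did.

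Some markers of plasma cells moved with this comparison, not all in the same direction. Igha was at 4.46 in E2A-KO LMPP, 4.26 in WT LMPP and 10.05 in WT LSK FLT3-, and Jchain was at 3.31 in E2A-KO LMPP, 3.17 in WT LMPP and 7.94 in WT LSK FLT3-. The plasma cell marker Sdc1 went the other way, at 8.03 in E2A-KO LMPP, 7.09 in WT LMPP and 5.55 in WT LSK FLT3- (1.54 between the wild-type fractions, adjusted p = 0.000168). Of 11 mature B and plasma cell genes 3 were higher and 3 lower in WT LMPP than in WT LSK FLT3-, and the list summed to 1024 and 1039 in E2A-KO LMPP, 1080 and 1151 in WT LMPP and 2926 and 2854 in WT LSK FLT3-. The B cell gene Ms4a1 lay below the array median in all groups, with means between 2.89 and 3.01. Between the LMPP genotypes the one gene of this list that passed was Sdc1 (0.94, adjusted p = 0.0158). Of 7 erythroid and megakaryocyte genes, 2 were higher and 4 lower in WT LMPP, with sums of 203 and 181 in E2A-KO LMPP, 162 and 160 in WT LMPP and 608 and 572 in WT LSK FLT3-, and of 9 dendritic cell genes 5 were higher, with sums of 1509 and 1375 in E2A-KO LMPP, 1693 and 1980 in WT LMPP and 756 and 796 in WT LSK FLT3-. The neutrophil list had 6 of 9 higher in WT LMPP. The part of these cells in the members' stage changes was not tested.

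Against WT LSK FLT3-, E2A-KO LMPP had 2 members higher (Satb1 and Mef2c) and 4 lower (Bcl11a, Foxo1, Ets1 and Myb). Over all genes 11.0% were higher and 26.5% lower. With the dimmest 40% of genes left out, 1143 of 10916 genes were higher and 4957 lower, and 3 members were higher and 4 lower. Of the genes that passed, 29.3% were higher in E2A-KO LMPP, 44.0% with quantile normalization and 14.6% with median centring, where the median of all genes was -0.16. With quantile normalization 3 members were higher and 1 was lower, and with median centring 1 was higher and 4 were lower. This comparison shares its arrays with the other 2, so its values are given beside theirs and not as further evidence. For the 4 members that rose at the LMPP stage, the E2A-KO level stood above WT LSK FLT3- by 0.76 for Satb1, 0.46 for Mef2c and 0.32 for Ikzf1, and below it for Ets1 (-0.81). Ets1 was thus the one stage-raised member whose E2A-KO LMPP mean lay below that of WT LSK FLT3-, though with quantile normalization that difference did not pass.

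Over the 41 probe sets of the 9 members, 3 were lower in E2A-KO LMPP than in WT LMPP, 2 of Ets1 and 1 of Bcl11a, and 0 were higher, with 0.561% of all probe sets lower. At the LMPP stage 14 rose and 3 fell, with 8.09% of all probe sets higher and 15.5% lower. The 14 were 5 of Satb1, 4 of Mef2c, 2 of Ets1, 2 of Sox4 and 1 of Ikzf1. Several probe sets disagreed with the brightest of their gene: those of Ikzf1 differed in sign between the LMPP genotypes (-0.21 and 0.26), and the dim one averaged 4.80 in E2A-KO LMPP and 4.54 in WT LMPP.

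**Figure D4:**
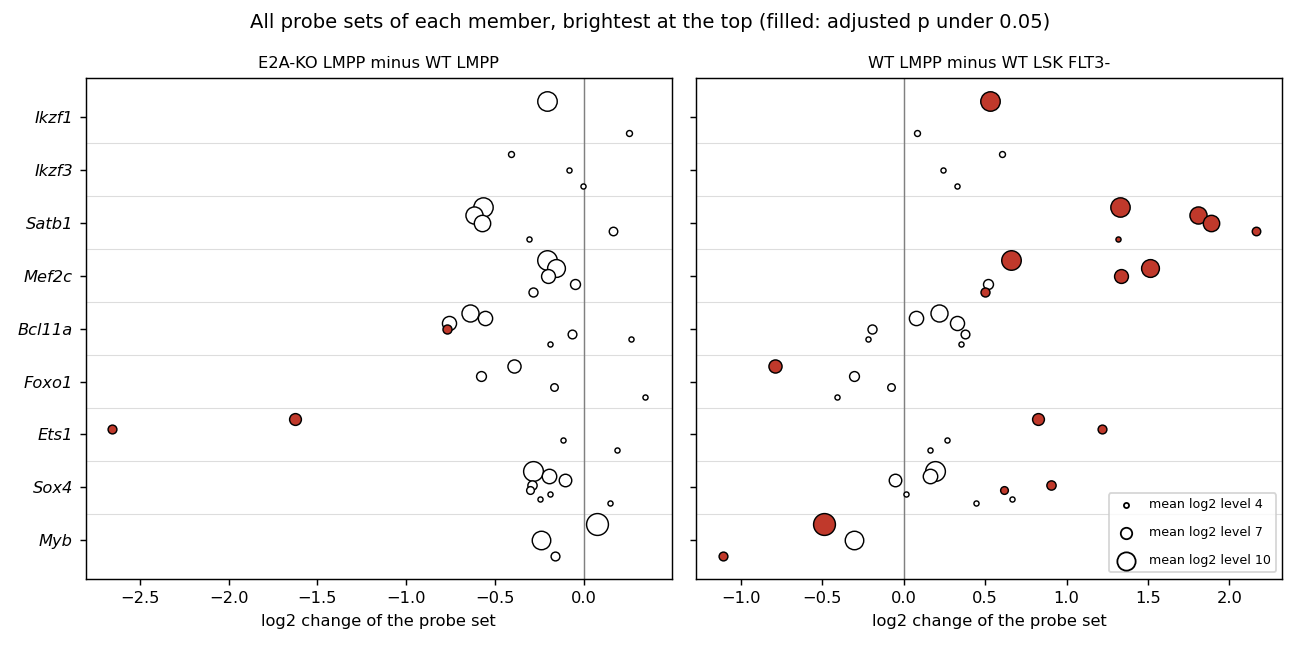
Log2 change of all 41 probe sets (x axis), grouped by gene with the brightest at the top, for E2A-KO LMPP minus WT LMPP (left) and WT LMPP minus WT LSK FLT3- (right). Larger circles are brighter probe sets and filled ones passed an adjusted p of 0.05, as 2 of Ets1 and 1 of Bcl11a did at the left and all 5 of Satb1 did at the right.

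Relatives of the members by DNA-binding family were set beside them, 35 measured of 37 listed. In E2A-KO LMPP against WT LMPP 0 of 35 passed in limma, while 1.37% of all genes did. An unadjusted p under 0.05 was reached by 11 relatives, 10 lower and 1 higher. Over all 18194 genes 2665 reached it, 1593 of these lower. The relatives' median change was -0.12. None of the 14 ETS family genes measured among these listed relatives passed between the LMPP genotypes. Their changes ran from -0.79 (Etv5) to 0.33 (Elf4), against -1.63 for Ets1, and ETS genes outside the list were not examined. Ikzf2, which encodes the Ikaros relative Helios, had the largest change above 0 of the 35, at 8.71 in E2A-KO LMPP, 8.10 in WT LMPP and 9.32 in WT LSK FLT3- (0.61 between the LMPP genotypes, adjusted p = 0.0766).

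Between the wild-type fractions 3 of the 35 relatives rose and 14 fell, while over all genes 10.4% rose and 23.7% fell. The relatives' median change was -0.22. The largest changes past the threshold were falls of Fli1 (-1.36), an ETS factor of stem cells and megakaryocytes, Bcl11b (-1.23), a T lineage regulator that was at 3.75 in WT LMPP and 4.98 in WT LSK FLT3-, Ikzf2 (-1.21), Sox6 (-1.19), an erythroid HMG-box factor, Ets2 (-0.86) and Runx3 (-0.81). Within the Ikaros family, Ikzf1 rose while Ikzf2, Ikzf4 and Ikzf5 fell. Ikzf4, at 3.52 in WT LMPP and 3.96 in WT LSK FLT3-, lay near or below the array medians. Among the listed ETS family genes, Ets1 and Elk3 rose while Ets2, Fli1, Erg, Etv3, Etv6 and Gabpa fell. The 3 rises were Foxp1 (0.73), a forkhead factor of B cell progenitors, Sox11 (0.62) and Elk3 (0.46). Sox11, at 4.14 in WT LMPP and 3.52 in WT LSK FLT3-, also lay near or below the array medians. With quantile normalization 3 relatives rose and 6 fell, and with median centring 1 rose and 15 fell.

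**Figure D5:**
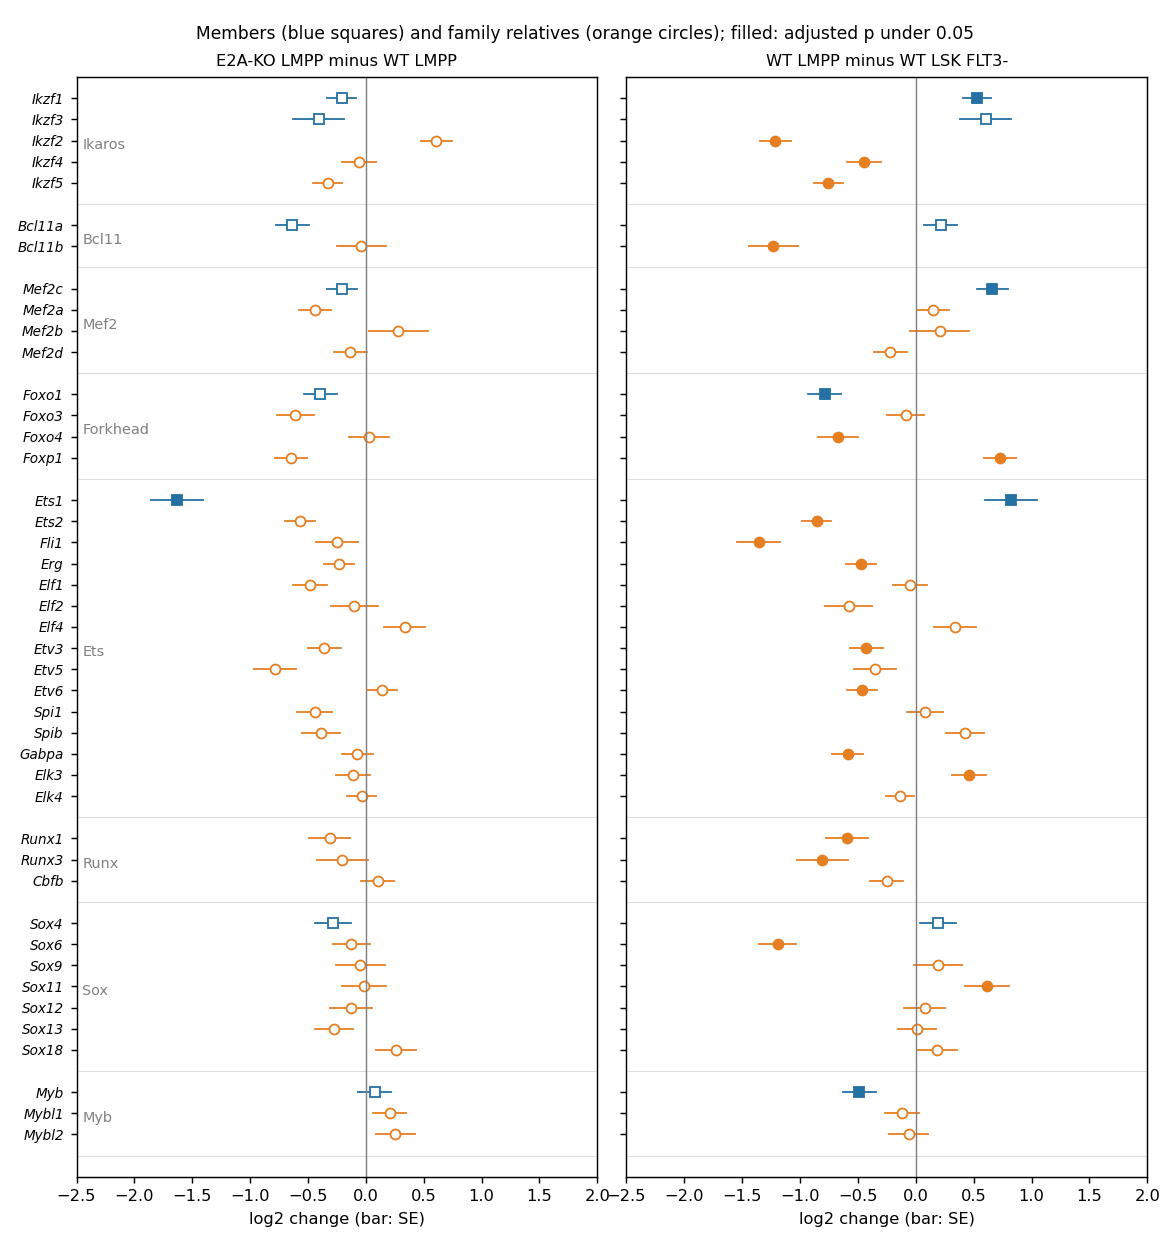
Log2 change (x axis, bar: SE) of the members (blue squares) and their family relatives (orange circles), by family, for E2A-KO LMPP minus WT LMPP (left) and WT LMPP minus WT LSK FLT3- (right), filled where the adjusted p was under 0.05. At the left Ets1 is the one filled point, and at the right 14 relatives lie filled below 0 and 3 above.

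Of 21 measured lymphoid genes on which the members act, or that mark the same state, 9 fell in E2A-KO LMPP against WT LMPP and 0 rose, and the list's median change was -0.37. The 4 largest falls were Il7r, which encodes the interleukin-7 receptor alpha chain (-3.81), Ccr9, a thymus-homing receptor (-3.22), Cnn3 (-2.39) and the recombinase gene Rag1 (-2.12). Il7r averaged 4.66 in E2A-KO LMPP and 8.47 in WT LMPP, and Cnn3 7.41 in E2A-KO LMPP and 9.81 in WT LMPP. Ccr9, at 3.74 in E2A-KO LMPP and 6.96 in WT LMPP, and Rag1, at 3.47 in E2A-KO LMPP and 5.59 in WT LMPP, lay below the array median in E2A-KO LMPP, so their changes are compressed and the order of the 4 is uncertain. This list had been drawn up with such falls in these arrays known, so its count is no independent evidence. Between the wild-type fractions 16 of the 21 rose and 0 fell, while 10.4% of all genes rose and 23.7% fell. The 16 include Flt3, by which these fractions were sorted, and the list's choice limits this count in the same way. Between the wild-type fractions Il7r rose by 3.07 and Rag1 by 1.62. Foxo1, which acts on both, was lower in WT LMPP than in WT LSK FLT3-. That fall passed on its brightest probe set alone and lost its call with quantile normalization (-0.46, adjusted p = 0.0584). Any link between the Foxo1 level and these rises was not tested.

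The genes most like Ets1 over the 6 arrays, by Pearson's r of log2 levels among 1766 genes with an SD of at least 0.5, were Sdc4, a syndecan (r = 0.98), Nsg2 (0.98) and Snn (0.97). The value describes 6 arrays in 3 groups and carries no test. Sdc4 was at 4.02 and 4.36 in E2A-KO LMPP, 6.14 and 6.33 in WT LMPP and 5.35 and 5.19 in WT LSK FLT3-, the same order of groups as Ets1. Nsg2 averaged 4.57 in E2A-KO LMPP, 5.81 in WT LMPP and 5.30 in WT LSK FLT3-, and Snn averaged 7.43 in E2A-KO LMPP, 8.49 in WT LMPP and 7.87 in WT LSK FLT3-.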

How the data were processed

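Expression was measured on 6 Affymetrix arrays, 2 per group, grouped by sample title (another label calls every sample wild-type LMPP and was set aside). Per the labels' protocols, RNA from sorted cells was amplified in 2 rounds, which favours 3' ends. The deposited values are summarised intensity per probe set, on a linear scale and made by the authors with RMA, per the submitters' processing notes. Their log2 was taken, and the sources used here do not say whether all arrays were normalized together. The number of arrays limits the precision.

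The brightest of the probe sets with 1 symbol in the platform annotation stood for each of 18194 genes. Limma 3.58.1 in R 4.3.3 fitted 1 mean per group on all 6 arrays (3 residual and 5.8 prior degrees of freedom), over all genes or all 45101 probe sets, with two-sided p-values adjusted by Benjamini and Hochberg and a threshold of 0.05. SDs and SEs rest on 2 arrays per group. The fit was tested on simulated data. Figures were drawn with matplotlib 3.10.9. The members, gene lists and naming rule (all members, the 6 largest called relatives per comparison, the 4 largest called lymphoid genes, the 3 genes most like Ets1) were chosen with earlier results of these data known. Genes outside that rule were named after their values were seen. Alternatives were a replicate block, only the 4 arrays compared, a filter on dim genes, other probe set rules, quantile or median scaling, a variance trend, leaving out each array, and other thresholds.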

Additional observations from a re-analysis of the deposited data

How the results depend on the processing

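With 2 arrays per group, most calls rest on single arrays. Members passing between E2A-KO and WT LMPP numbered 1, 3 with the dimmest 40% of genes left out, 3 with a variance trend and 3 at an adjusted p under 0.1, and 0 to 1 without 1 array. Between WT LMPP and WT LSK FLT3- 6 passed, 1 with at least a 2-fold change, and 1 to 6 without 1 array. Between E2A-KO LMPP and WT LSK FLT3- 6 passed, 1 with at least a 2-fold change, and 2 to 6 without 1 array. Values that changed sign were not called in either fit: Ikzf1 (0.023) and Myb (-0.11) between the LMPP genotypes with the mean of all probe sets, Myb also without WT LMPP replicate 1 (-0.056; without 1 array up to 0.21), and Sox4 between E2A-KO LMPP and WT LSK FLT3- with the mean of all probe sets (0.19), quantile normalization (0.13) or without WT LSK FLT3- replicate 2 (0.092; without 1 array down to -0.28). The 29 values followed include many that were not called at first and so could not lose a call. Over these 29 and their alternatives, 337 of 402 kept direction and side of the threshold, 47 lost a call and 12 gained one. The causes were not tested.

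No label says that equal replicate numbers mark paired samples, and same-numbered arrays deviated from their group means with correlations of 0.02, -0.02 and -0.04. With the replicate block 1, 7 and 5 members passed in the 3 comparisons: Ikzf3 gained its call between the wild-type fractions (adjusted p = 0.0462), Myb lost its call between E2A-KO LMPP and WT LSK FLT3- (adjusted p = 0.0605), and so did the dimmer Bcl11a probe set between the LMPP genotypes (adjusted p = 0.0573). Over all genes 250 passed between the LMPP genotypes and 89 to 164 without 1 array, 89 on the 4 LMPP arrays, 123 with at least a 2-fold change, 548 with a variance trend, 508 at an adjusted p under 0.1 and 445 of all probe sets. Between WT LMPP and WT LSK FLT3- 6198 passed, 3496 with quantile normalization, 1214 with at least a 2-fold change, 2370 to 6410 without 1 array and 10648 of all probe sets. Between E2A-KO LMPP and WT LSK FLT3- 6822 passed, 3617 with quantile normalization, 1358 with at least a 2-fold change, 2944 to 7515 without 1 array and 12853 of all probe sets.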
